A study of Mus musculus with 12 samples.

Results

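The 9 genes described here belong to the major histocompatibility complex (MHC) class I presentation pathway and were followed through the phases of a relapsing autoimmune disease of the spinal cord. They were taken from a list of symbols and comprised the class I heavy chains H2-K1, H2-D1 and H2-T23, the light chain B2m, the peptide transporter subunits Tap1 and Tap2, tapasin (Tapbp), the peptidase Erap1 and the transactivator Nlrc5. The rule itself uses no measured value, but the members were chosen with earlier results of these data known. All 9 were found among the 48526 genes of the count tables, and all 9 were among the 12545 genes with enough counts to be tested, at the level the count filter asks for in each of the 12 libraries.

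RNA was sequenced from microglia, the resident macrophages of the central nervous system, of Biozzi ABH mice. These mice develop chronic-relapsing experimental autoimmune encephalomyelitis (crEAE), a model of multiple sclerosis in which an attack is followed by remission, relapses and a chronic stage. The 4 groups of 3 libraries were control mice and crEAE mice in the acute, remission and chronic phases, all of the same strain. Spinal cord cells were sorted for CD11b, an intermediate level of CD45 and absence of Ly-6C. The labels give neither the animals' ages nor the days of sampling, and a library's number within its group is only a name.

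Total counts ran from 3992885 to 5712376 per library, of which 48.3 to 64.1% fell on 6 features, and 1266782 to 2496096 counts remained outside these and the mitochondrially encoded genes. The sorted cells carried microglial markers in every group, but the acute libraries stood apart. The summed level of 10 microglial genes was 6181 to 7001 CPM (counts scaled to 1000000 counts of library size) in control, 945 to 1656 in acute-phase, 4591 to 4604 in remission-phase and 4309 to 4724 in chronic-phase libraries. The sum of 12 monocyte and recruited-macrophage genes was 20.9 to 58.0 CPM in control mice, 1617 to 2459.7 at the acute stage, 17.6 to 28.6 during remission and 22.5 to 48.7 at the chronic stage. Of that list, Ly6c2, Chil3, F10 and Clec4e had no count in control libraries and F10 had none in remission or chronic libraries, while all 12 genes were found in acute libraries. The sum of 12 T and NK cell genes was 0.142 to 1.05, 85.1 to 128, 0.531 to 4.43 and 0.681 to 1.08 CPM in the same order, and Cd3e, Cd3d, Cd3g and Cd4 were at 0 in control libraries. That of 5 B cell genes was 2.63 to 5.39, 0.889 to 2.93, 3.44 to 5.58 and 1.08 to 2.72 CPM, so it was not raised in acute libraries. Sums of 10 neutrophil genes were 0.350 to 0.569, 99.6 to 357, 0.266 to 53.3 and 0.180 to 10.5 CPM, and those of 6 border-macrophage genes were 0.711 to 1.05, 66.1 to 113, 1.15 to 2.12 and 1.08 to 1.79 CPM. The acute border-macrophage sum rested mostly on F13a1, at a mean of 82.3 CPM. Mrc1 stood at 3.78, Cd163 at 0.652, Pf4 at 0.274 and Cbr2 at 0.185 CPM in acute libraries, and Lyve1 had no count. Acute libraries were also high in the sum of 7 oligodendrocyte genes (447 to 582 against 86.8 to 110.2 CPM in control) and of 6 astrocyte genes (137 to 175 against 22.8 to 27.7 CPM). Remission replicate 1 differed from the other remission libraries in its oligodendrocyte sum (700.3 against 71.4 and 141 CPM), astrocyte sum (118.5 against 14.5 and 20.7 CPM) and neutrophil sum (53.3 against 1.72 and 0.266 CPM). The sum of 6 endothelial genes was 8.63 to 10.5 CPM in control, 19.97 to 26.1 in acute, 19.1 to 26.8 in remission and 33.4 to 64.6 in chronic libraries.

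Class I molecules display peptides from inside the cell to CD8 T cells. Peptides cut by the proteasome are carried into the endoplasmic reticulum by the transporter made of Tap1 and Tap2, trimmed there by Erap1, and loaded with the help of tapasin onto a heavy chain paired with beta-2 microglobulin, the product of B2m. H2-K1 and H2-D1 encode the classical heavy chains, and H2-T23 encodes Qa-1, a nonclassical heavy chain that also engages receptors of natural killer cells. Nlrc5 is the transactivator of class I genes: it acts through factors that sit on conserved X and Y boxes of their promoters, and both it and its targets respond to interferons. Microglia of the healthy nervous system are known for low class I levels that rise in inflammation.

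Of the 9 genes, 6 sit in or beside the MHC on chromosome 17 (GRCm38 coordinates with GENCODE M21 gene models). Tapbp (ENSMUSG00000024308) lies from 33915899 to 33929292, H2-K1 (ENSMUSG00000061232) from 33996017 to 34000347, Tap1 (ENSMUSG00000037321) from 34187553 to 34197225 and Tap2 (ENSMUSG00000024339) from 34203527 to 34216321. H2-D1 (ENSMUSG00000073411) lies from 35262730 to 35267499 and H2-T23 (ENSMUSG00000067212) from 36029773 to 36032855. The others are spread over the genome: B2m (ENSMUSG00000060802) on chromosome 2 from 122147686 to 122153083, Nlrc5 (ENSMUSG00000074151) on chromosome 8 from 94434356 to 94527272 and Erap1 (ENSMUSG00000021583) on chromosome 13 from 74639568 to 74693201.

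The promoters of H2-K1 and B2m are printed because these genes, on different chromosomes, rose together in all 3 disease phases and carry the same box arrangement. The sequences are from RefSeq (GRCm38.p6), read 5′ to 3′ toward the transcription start. Capitals mark, in order, an NF-kB motif (an overlapping pair of matches), the X2 box core TGACG and the Y box ATTGG in H2-K1 (minus strand, chr17:34000348-34000597). In B2m (plus strand, chr2:122147437-122147685) they mark the interferon response element core GAAANNGAAA, an NF-kB motif, the X2 core and the Y box.
H2-K1: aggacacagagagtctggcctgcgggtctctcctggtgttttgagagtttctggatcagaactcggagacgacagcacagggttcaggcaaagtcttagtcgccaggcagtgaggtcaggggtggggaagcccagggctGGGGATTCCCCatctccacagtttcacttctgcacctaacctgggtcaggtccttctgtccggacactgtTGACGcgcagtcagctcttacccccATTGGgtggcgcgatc
B2m: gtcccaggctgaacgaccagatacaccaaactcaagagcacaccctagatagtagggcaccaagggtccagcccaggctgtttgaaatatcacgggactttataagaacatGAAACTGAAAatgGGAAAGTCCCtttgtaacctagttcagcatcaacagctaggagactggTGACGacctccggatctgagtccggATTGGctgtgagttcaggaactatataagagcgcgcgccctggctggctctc

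In both sequences the first base of TGACG lies 25 bases before the first base of ATTGG. Among the 7 of 9 genes with a RefSeq window (250 bases before to 50 after the start; Tap2 and Nlrc5 had none), H2-D1 carried the pair at the same spacing, so 3 of 7 did. Of 16 other class I and class I-like genes with a window, H2-M3 did. Over all mouse windows it was found in 31 of 32851 (0.0944%), and both motifs at any spacing in 7.73%. This spacing was picked after the sequences had been read, so it is a description. H2-D1 held its X2 core at -101, Y box matches at -76 and -53 and the NF-kB pair at -171 and -170 from the start. Matches that are not in capitals above were a further Y box at 8 in H2-K1 and a further X2 core at 44 in B2m, both after the start. H2-K1 had 2 RefSeq windows, and its positions are given for the window printed above. From the start of its other window the NF-kB pair lay at -125 and -124, the X2 core at -55 and the Y boxes at -30 and -6. The window of H2-T23 held an interferon element at -124 and a Y box at -52, that of Tap1 a Y box at -222 and an X2 core at -86, that of Tapbp Y boxes at -248 and -165, and that of Erap1 an interferon element at -4. On both strands of all 32851 windows, the interferon element core was found in 3.44%, the NF-kB motif in 8.46%, the X2 core in 20.8% and the Y box (CCAAT or ATTGG) in 37.4%. The gamma activated site TTCNNNGAA, in 8.3% of all windows, was in none of the 7. A match of letters is not a bound site. The interferon element was sought only as the exact pattern GAAANNGAAA on either strand, so an element that departs from these letters is missed. No match in H2-K1, H2-D1, Tap1 or Tapbp therefore does not mean that such an element is absent.

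**Figure D1:**
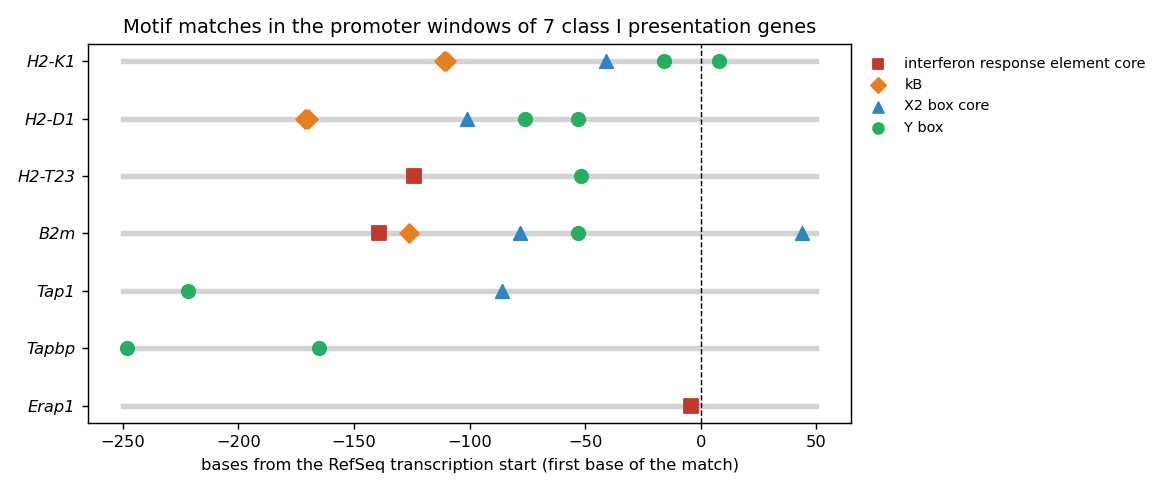
Motif matches in the RefSeq promoter windows of 7 class I presentation genes; the x axis is the distance in bases from the transcription start to the first base of each match, and symbols stand for the motif. H2-K1, H2-D1 and B2m carry an X2 core 25 bases before a Y box, and the NF-kB matches lie upstream of it in all 3. Elements that depart from the exact pattern of a motif are not shown. H2-K1 had 2 RefSeq windows, and only the window printed above is drawn.

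All 9 genes rose in acute against control mice, where 23.7% of all tested genes rose, with a median log2 fold change of 2.09 against 0.02 over all genes. In remission 7 of 9 rose against control (6.06% of all genes), with a median of 1.34 against 0.01, and the other two, Tapbp and Erap1, did not pass. In the chronic phase all 9 rose against control (9.57% of all genes), with a median of 2.06 against -0.01. The test for a difference of any kind between the 4 groups called all 9 (44% of all genes). Because the members were chosen with earlier results of these data known, these counts beside the shares over all genes are a description. A gene was called at an adjusted p under 0.05 in edgeR's quasi-likelihood test. The counts of the 9 genes in this paragraph were the same without any single library. In these bulk libraries fewer cells of a type and less RNA per cell cannot be told apart. The acute rise coincided with higher sums of the monocyte, neutrophil, T and NK cell, oligodendrocyte, astrocyte and endothelial lists, given above. The border-macrophage sum was also higher, mostly through F13a1. Of the endothelial list, Flt1 stood at 9.87 CPM in acute against 0.961 in control libraries. Pecam1 stood at 5.80 against 3.36, Kdr at 6.31 against 4.69 and Cdh5 at 0.998 against 0.473 CPM, and Cldn5 and Tek had no count in either group. The part of these markers in the acute rise was not tested. In remission and chronic libraries the monocyte sum lay under the highest control library, control replicate 3 at 58.0 CPM. The other control libraries stood at 23.6 and 20.9 CPM, against 17.6 to 28.6 in remission and 22.5 to 48.7 in the chronic phase. The T and NK cell sum was at most 4.43 CPM in remission and chronic libraries. The neutrophil sum reached 53.3 CPM in remission and 10.5 CPM in the chronic phase. The endothelial sum was above control in every library of both groups, with Flt1 and Kdr higher and Pecam1 lower than in control. The part of these genes was not tested either.

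**Figure D2:**
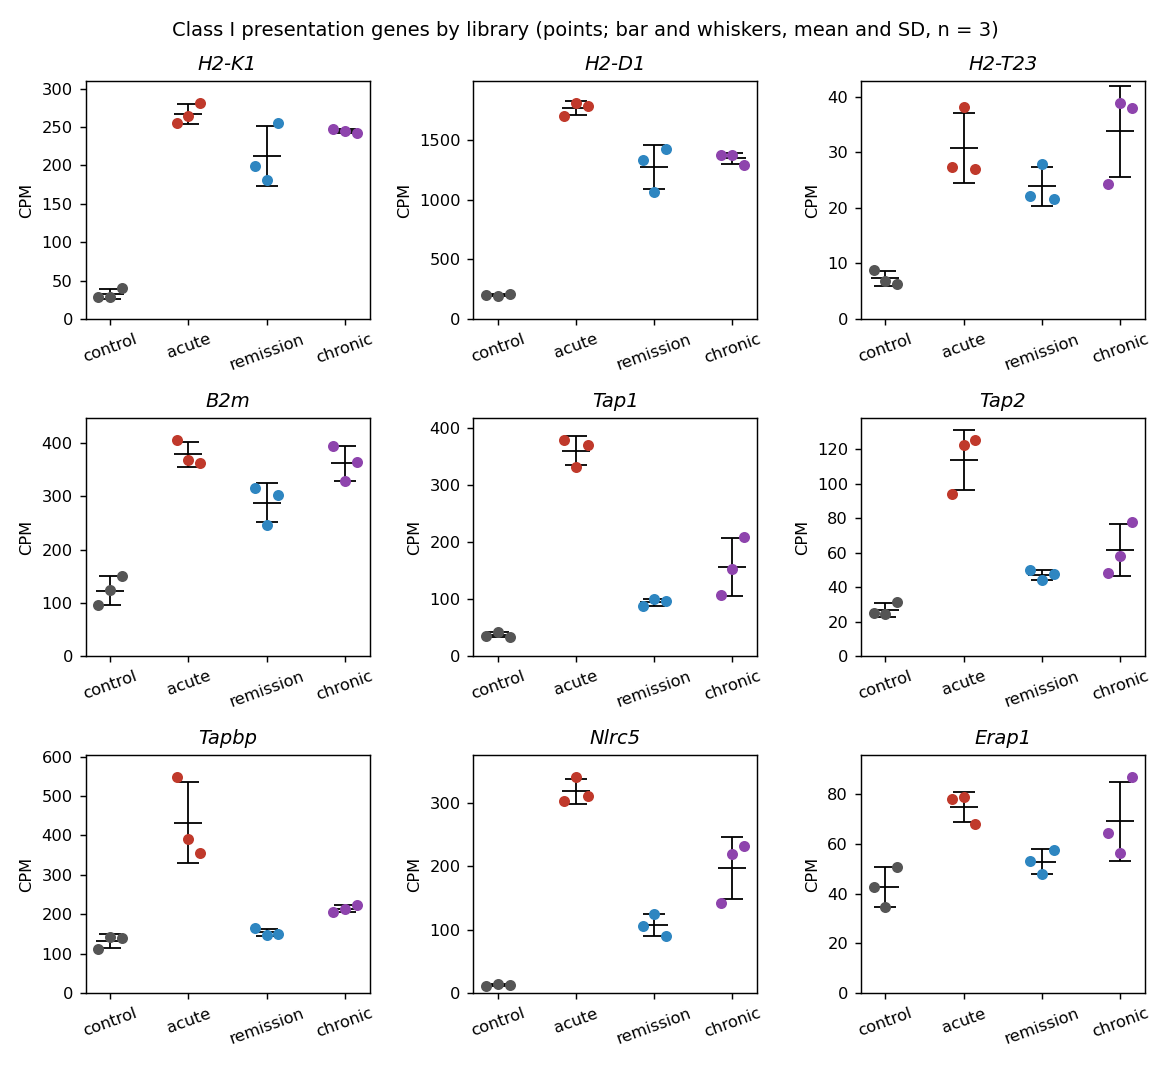
CPM of each of the 9 genes (y axis) in every library by phase (x axis); points are libraries, and the bar and whiskers are the mean and SD of 3. H2-K1, H2-D1, H2-T23 and B2m stay far above control in remission and the chronic phase, whereas Tapbp returns to 147 to 164 CPM in remission against 112 to 144 in control.

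Both classical heavy chains rose in all 3 disease phases. H2-K1 stood at 28.7, 28.2 and 39.9 CPM in control, 256, 264 and 282 in acute-phase, 199.7, 181 and 256 in remission-phase and 247, 245 and 242 in chronic-phase libraries. No disease library came near the control range, and the chronic libraries lay closest together. The log2 fold change against control was 3.06 ± 0.16 (SE) in acute, 2.72 ± 0.16 in remission-phase and 2.93 ± 0.16 in chronic-phase mice (adjusted p 9.03e-12, 3.00e-10 and 6.70e-11, edgeR's quasi-likelihood test).

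H2-D1, the other classical heavy chain, was the more abundant per kilobase of exon. Its libraries read 202, 189 and 211 CPM in control mice, 1701, 1813 and 1782 at the acute stage, 1335, 1068 and 1421 during remission and 1373, 1373 and 1295 at the chronic stage. Every remission and chronic library lay below every acute one and above every control library. Log2 fold changes against control were 3.14 ± 0.14, 2.67 ± 0.14 and 2.75 ± 0.14 (adjusted p 1.24e-12, 8.20e-11 and 3.29e-11).

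The nonclassical H2-T23 had the lowest level of these heavy chains per kilobase of exon. It stood at 8.82, 6.83 and 6.26 CPM in control, 27.2, 38.1 and 26.97 in acute-phase, 22.1, 27.9 and 21.5 in remission-phase and 24.3, 38.9 and 38.0 in chronic-phase mice. It was the only gene of the 9 whose mean was highest in the chronic phase, though its chronic and acute libraries overlapped. Against control it rose by log2 2.06 ± 0.23, 1.69 ± 0.23 and 2.19 ± 0.22 (adjusted p 3.34e-07, 3.26e-05 and 7.77e-07). Between 3.1 and 5.91% of the 75-base windows in the transcripts of these heavy chains also occur in other genes, mostly other class I genes, and the counts come from reads placed on the reference genome, whose heavy-chain alleles need not be those of the ABH strain. The effect of either on the counts was not tested.

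B2m, the shared light chain, rose less than the classical heavy chains. It read 95.3, 124.4 and 149.5 CPM in control mice, 406, 368 and 363 at the acute stage, 315, 247 and 303 during remission and 395, 329 and 364 at the chronic stage. All disease libraries exceeded all control libraries, and chronic and acute libraries overlapped. The log2 fold change against control was 1.63 ± 0.15 in acute, 1.23 ± 0.15 in remission-phase and 1.56 ± 0.15 in chronic-phase mice (adjusted p 3.81e-08, 1.19e-05 and 4.72e-07). None of its 75-base windows is shared with another gene.

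The transporter genes were highest in the acute phase. Tap1 stood at 35.7, 41.9 and 34.1 CPM in control, 379, 331 and 369.9 in acute-phase, 87.5, 99.3 and 97.0 in remission-phase and 106, 152.5 and 209 in chronic-phase mice. Remission libraries were close together, while the chronic libraries spread more widely with replicate 1 lowest, and no group overlapped another. Tap1 rose against control by log2 3.27 ± 0.19 in acute, 1.34 ± 0.18 in remission-phase and 2.06 ± 0.19 in chronic-phase mice (adjusted p 2.09e-10, 7.79e-05 and 4.21e-07).

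Tap2, its partner in the transporter, moved less. Its values were 24.8, 24.4 and 31.3 CPM in control mice, 93.9, 122 and 125 at the acute stage, 49.8, 44.0 and 47.5 during remission and 48.1, 58.2 and 77.8 at the chronic stage. Chronic and remission libraries overlapped, and both groups lay between control and acute. The log2 fold changes against control were 2.09 ± 0.17, 0.82 ± 0.17 and 1.20 ± 0.17 (adjusted p 6.17e-09, 0.00308 and 4.44e-05). Of its exon bases, 18.5% also belong to other annotated genes, which these strandless libraries cannot keep apart.

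Tapbp, which bridges the transporter and the heavy chain, returned nearly to control. It read 112, 144 and 140.3 CPM in control, 548, 391.9 and 356 in acute-phase, 164, 147 and 151 in remission-phase and 205, 213 and 225 in chronic-phase mice. The remission libraries all exceeded the highest control library, yet by so little that the change of log2 0.23 ± 0.15 (95% interval -0.08 to 0.54) did not pass (adjusted p 0.413). It rose by 1.71 ± 0.15 in acute and by 0.70 ± 0.15 in chronic mice (adjusted p 1.67e-08 and 0.00229), and the chronic call ended when libraries were scaled by their totals alone (adjusted p 0.107; 6.63e-06 to 0.107 over 20 alternatives). An overlap with other annotated genes takes 29% of its exon bases.

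Erap1 encodes the aminopeptidase that trims peptides to class I length, and of the 9 genes it changed least from control to the acute phase. It stood at 42.5, 34.5 and 50.9 CPM in control mice, 78.1, 78.9 and 67.9 at the acute stage, 53.2, 47.8 and 57.6 during remission and 64.2, 56.4 and 87.0 at the chronic stage. Remission and control libraries overlapped. It rose by log2 0.82 ± 0.17 in acute (adjusted p 0.000426) and 0.70 ± 0.16 in chronic mice (adjusted p 0.00559), and stood at 0.31 ± 0.17 in remission (95% interval -0.03 to 0.66, adjusted p 0.29). Both calls ended with scaling by library totals alone (adjusted p 0.209 in acute and 0.177 in chronic mice; over 20 alternatives 6.89e-06 to 0.209 and 0.000224 to 0.177).

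The transactivator Nlrc5 had the steepest rise of the 9. It was near 13 CPM in controls (11.7, 14.0 and 13.4), reached 304, 341 and 311 in acute, and held at 105, 125 and 90.3 in remission and 142, 219.9 and 232 in chronic mice. The 4 groups did not overlap, and chronic replicate 1 lay well under its group. Its log2 fold change against control was 4.62 ± 0.19 in acute (24.5-fold), 3.04 ± 0.19 in remission (8.24-fold) and 3.93 ± 0.19 in chronic mice (15.2-fold), with adjusted p 9.28e-13, 1.40e-09 and 3.29e-11.

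**Figure D3:**
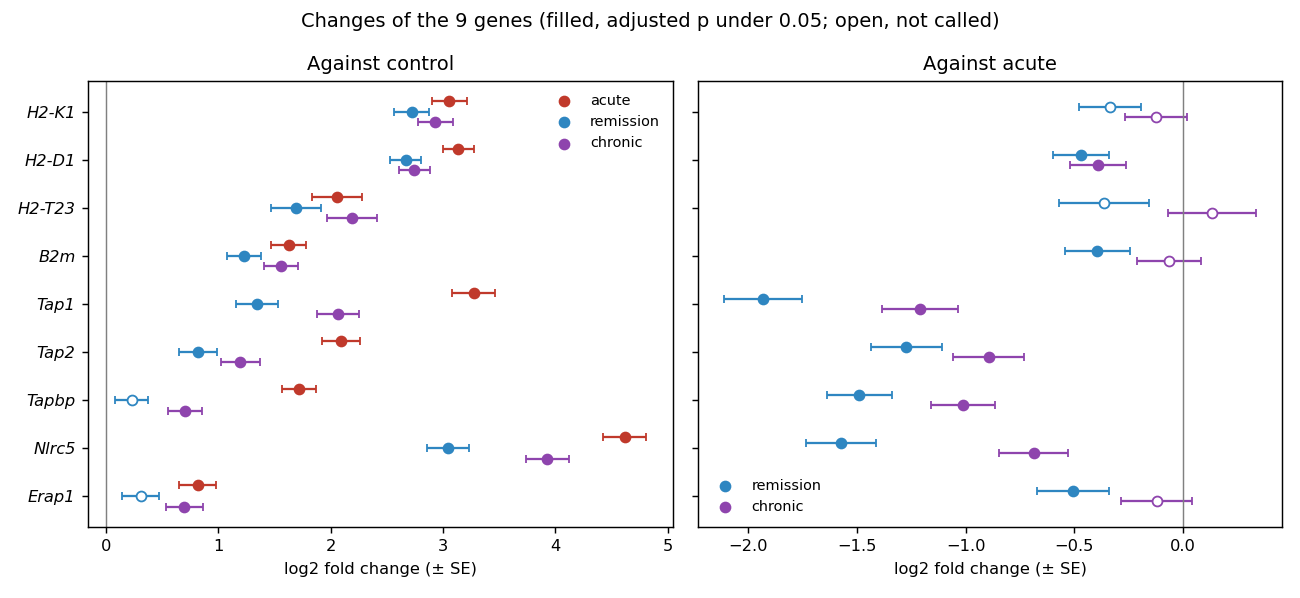
Log2 fold changes (x axis, with SE whiskers) of the 9 genes against control (left) and against acute mice (right); filled points had an adjusted p under 0.05 and open points did not. Against acute, Tap1, Tap2, Tapbp and Nlrc5 lie between -1.93 and -0.69, and H2-K1, H2-D1, H2-T23 and B2m between -0.47 and 0.13.

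After the acute phase, the largest falls among the 9 genes were those of the transporter subunits, tapasin and Nlrc5. From acute to remission 7 of 9 fell (19.4% of all genes fell), with a median log2 change of -0.51 against -0.01 over all genes. Tap1 fell by 1.93 ± 0.18 on the log2 scale, Nlrc5 by 1.57 ± 0.16, Tapbp by 1.49 ± 0.15 and Tap2 by 1.27 ± 0.17 (adjusted p 2.18e-07, 4.15e-07, 2.56e-07 and 5.47e-06), and each of these calls held in all 20 alternatives. The changes of the others were smaller: -0.51 ± 0.16 for Erap1 (adjusted p 0.0199), -0.47 ± 0.13 for H2-D1 (0.00637) and -0.39 ± 0.15 for B2m (0.0418) passed, and -0.34 ± 0.14 for H2-K1 (0.0703) and -0.36 ± 0.21 for H2-T23 (0.176) did not. Without remission replicate 2 the number fell to 4, as H2-D1, B2m and Erap1 no longer passed (adjusted p 0.0702, 0.221 and 0.0916; over all alternatives up to 0.41, 0.677 and 0.383). The call of B2m also ended without control replicate 2, any 1 acute library or remission replicate 3 (adjusted p 0.0518 to 0.118), and that of Erap1 without acute replicate 1 or 2 (0.0617 and 0.0684). H2-K1 passed without remission replicate 3 (adjusted p 0.0174).

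From acute to the chronic phase 5 of 9 fell (15.5% of all genes), with a median of -0.39 against 0.00. These were Tap1 (-1.21 ± 0.17, adjusted p 4.36e-05), Tapbp (-1.01 ± 0.15, 3.18e-05), Tap2 (-0.89 ± 0.16, 0.00031), Nlrc5 (-0.69 ± 0.16, 0.00282) and H2-D1 (-0.39 ± 0.13, 0.0262). The call of H2-D1 was lost in 7 of 21 alternatives (adjusted p 0.00159 to 0.391), among them without acute replicate 2, chronic replicate 2 or chronic replicate 3. Another of these alternatives was a single fit of all H2-K, H2-D, H2-Q and H2-T genes summed, not of H2-D1 alone. The intervals of the rest were -0.42 to 0.17 for H2-K1, -0.29 to 0.55 for H2-T23, -0.37 to 0.24 for B2m and -0.46 to 0.22 for Erap1.

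Between the chronic phase and remission, Nlrc5 alone passed, higher in chronic mice by log2 0.89 ± 0.16 (adjusted p 0.0127), so that 1 of 9 rose where 0.941% of all genes did. That call ended without remission replicate 3 (adjusted p 0.093) and with only the 2 groups in the fit (0.0765), in a range of 5.23e-08 to 0.093 over 20 alternatives. Tap1 was higher in every chronic than in every remission library at 0.72 ± 0.18 (adjusted p 0.0521), and it passed without chronic replicate 1 (adjusted p 0.000812). Tapbp (0.48 ± 0.15, adjusted p 0.113) and B2m (0.33 ± 0.15, adjusted p 0.276) also had no overlap between these groups and did not pass.

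Levels of different genes were compared per kilobase of exon. In controls B2m was first at 143 ± 31.6 CPM per kb (SD, n = 3), ahead of H2-D1 at 77.9 ± 4.29, Tapbp at 36.3 ± 4.85 and H2-K1 at 10.99 ± 2.25, and Nlrc5 was last at 1.53 ± 0.143. In acute mice H2-D1 was first at 685 ± 22.4, above B2m at 441 ± 27.9, and it stayed above B2m in remission (494 ± 71.4 against 335 ± 42.2) and in the chronic phase (522 ± 17.5 against 422 ± 38.1). The amount of B2m per unit of H2-K1 plus H2-D1 was 1.61 ± 0.307 in control, 0.569 ± 0.0551 in acute-phase, 0.594 ± 0.0373 in remission-phase and 0.697 ± 0.0661 in chronic-phase mice. Every control library (1.26 to 1.82) lay above every disease library (0.536 to 0.744), and the ratio differed among groups (exact permutation test over all assignments of the 12 libraries to 4 groups of 3, p 0.00214, adjusted over 7 ratios 0.005). A ratio within a library does not depend on how libraries are scaled. The level of a ratio and the order of genes per kilobase do depend on the exon lengths used and on how reads were placed. The effect of shared exon bases and of the strain's heavy-chain alleles on these values was not tested.

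The proportion of H2-K1 to H2-D1 was 0.141 ± 0.0223 in control mice, 0.133 ± 0.0056 at the acute stage, 0.146 ± 0.0135 during remission and 0.160 ± 0.00399 at the chronic stage, with no difference called (exact permutation p 0.217; 0.0173 without control replicate 3). H2-T23 relative to the classical heavy chains was 0.0286 ± 0.00595 in control against 0.0137 ± 0.00256 in acute, 0.0150 ± 0.00464 in remission-phase and 0.0193 ± 0.00494 in chronic-phase mice (exact permutation p 0.0269, adjusted 0.0314). That result did not pass without control replicate 1, control replicate 2, acute replicate 1, acute replicate 3 or remission replicate 1 (exact permutation p 0.0519 to 0.102).

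The transporter subunits changed in unequal measure. Tap1 per Tap2 was 0.979 ± 0.218 in control, 2.23 ± 0.49 in acute-phase, 1.39 ± 0.173 in remission-phase and 1.73 ± 0.178 in chronic-phase mice, and every disease library (1.21 to 2.79) exceeded every control library (0.752 to 1.19). The groups differed (exact permutation p 0.000195, adjusted 0.000682). Tapbp per Tap1 went from 5.37 ± 0.766 in control to 1.81 ± 0.365, 2.47 ± 0.318 and 2.22 ± 0.652 (exact permutation p 0.00487, adjusted 0.00852), and Erap1 per Tap1 from 0.880 ± 0.252 to 0.157 ± 0.0207, 0.422 ± 0.0521 and 0.348 ± 0.0932 (exact permutation p 0.000195, adjusted 0.000682). For a pair of groups the smallest exact p that 3 against 3 libraries can give is 0.10, so single pairs were not called.

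Nlrc5 per unit of H2-K1 plus H2-D1 was 0.0173 ± 0.00228 in control mice, 0.0484 ± 0.00208 at the acute stage, 0.0229 ± 0.00735 during remission and 0.0386 ± 0.0102 at the chronic stage (exact permutation p 0.00727, adjusted 0.0102). Acute libraries (0.0466 to 0.0506) lay above all control and remission libraries (0.0156 to 0.0310), and the chronic libraries (0.0271 to 0.0467) overlapped both. Proportions of Tap1, Tap2 and Tapbp to the classical heavy chains were added after their values had been seen and are given without a test. Tap1 read 0.0771 ± 0.0138, 0.0849 ± 0.00831, 0.0311 ± 0.00613 and 0.0474 ± 0.0170 in control, acute, remission and chronic mice. Tap2 read 0.0795 ± 0.00646, 0.0387 ± 0.00479, 0.0222 ± 0.00239 and 0.0269 ± 0.00747. Tapbp read 0.410 ± 0.0645, 0.154 ± 0.0419, 0.0759 ± 0.0101 and 0.0978 ± 0.00732. In remission, each of these 3 genes was below its control proportion in every library.

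**Figure D4:**
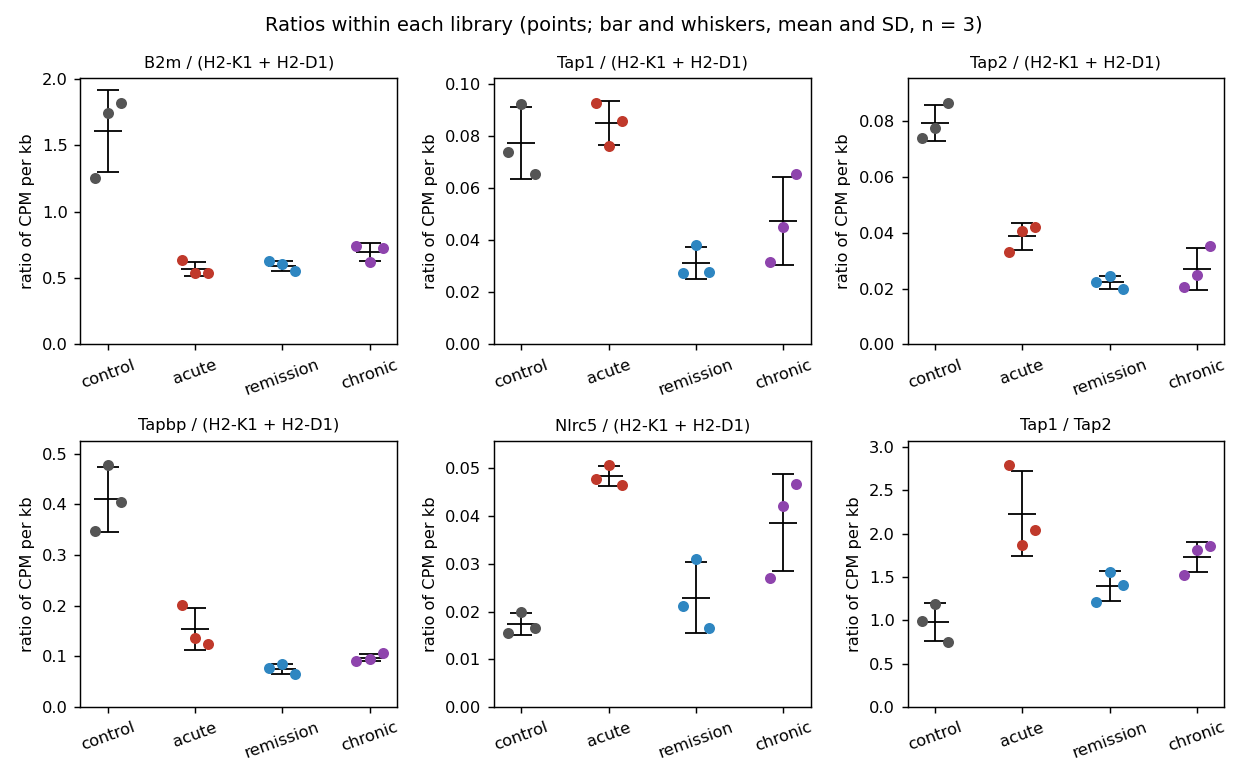
Ratios of CPM per kilobase within each library (y axes) by phase (x axes); points are libraries, and the bar and whiskers are the mean and SD of 3. B2m per classical heavy chain lies lower in all disease libraries than in controls, Tap1 per heavy chain is near control in acute and lower in remission, and Tap1 per Tap2 is above control in all disease libraries.

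Of 27 other heavy chain and class I-like genes listed, 23 were in the tables and 16 were tested. H2-Q2, H2-Q4, H2-Q6, H2-T10, H2-M3 and Mr1 rose in each disease phase against control and were at the filter's level in all control libraries. H2-Q1, H2-Q7, H2-Q10, H2-T22, H2-Bl and H2-M2 also passed in each phase, but H2-Q7, H2-Q10, H2-Bl and H2-M2 reached that level in no control library, and H2-Q1 and H2-T22 in 1. These 6 entered the test through the disease libraries, so that a rise was fixed by the filter, and no count over the list is read as a result. Of the 16 tested, 4 fell from acute to remission and the same 4 from acute to the chronic phase. Hfe alone rose in these comparisons (17.6 and 13.3% of all genes rose). These counts too are given beside the shares over all genes and are not read as a result about the list. H2-Q4, H2-Q6, H2-T10 and H2-T22 fell from acute to remission (19.4% of all genes fell), by 0.81, 0.57, 1.93 and 1.49 on the log2 scale, and from acute to the chronic phase (15.5% of all genes), by 0.49, 0.37, 1.13 and 1.09, with adjusted p of at most 0.0456. H2-T10 stood at 2.98 ± 0.544, 23.1 ± 1.11, 6.10 ± 1.68 and 10.6 ± 2.67 CPM in the order control, acute, remission, chronic. Of the nonclassical Q-region genes, H2-Q6 went from 5.41 ± 1.35 CPM in control to 118 ± 9.32, 79.6 ± 9.23 and 91.4 ± 5.44 (log2 4.45, 3.87 and 4.07), and H2-Q7, a Qa-2 gene, from 0.810 ± 0.616 to 42.8 ± 2.90, 38.9 ± 5.53 and 41.0 ± 7.70. H2-Q4 went from 21.4 ± 4.06 to 188 ± 15.3, 108 ± 16.4 and 134 ± 23.8 CPM, and H2-Q2 from 5.997 ± 0.725 to 37.6 ± 6.99, 32.9 ± 1.68 and 39.0 ± 1.03. H2-M3, which presents formylated peptides and shares the box spacing shown above, went from 11.99 ± 1.98 to 44.0 ± 3.53, 45.2 ± 1.38 and 51.4 ± 7.47. H2-M2 had no count in controls and was at least 10.5-fold higher in acute, 17.3-fold in remission and 19.6-fold in chronic mice, against a floor of 3 counts over the control group. Hfe, a class I-like regulator of iron uptake, fell in acute mice by 1.71 ± 0.27 on the log2 scale and was higher than in acute mice in remission (1.37 ± 0.28) and in the chronic phase (1.87 ± 0.27). Reads of these near-identical genes may be split by the counting, so their separate values are uncertain.

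Of 12 genes that supply peptides, all tested, 9 rose in acute mice (23.7% of all genes) and none fell (20% of all genes), with a median of 0.81. In remission 3 rose (6.06% of all genes, median 0.36) and in the chronic phase 5 (9.57%, median 0.38), so that the smaller counts of these phases went with smaller shares over all genes. From acute to remission 6 fell (19.4% of all genes), and from acute to the chronic phase 5 (15.5%). Psmb8, a catalytic subunit of the immunoproteasome, stood at 13.7 ± 2.53 CPM in control, 67.2 ± 11.1 in acute-phase, 25.9 ± 2.04 in remission-phase and 39.5 ± 13.2 in chronic-phase mice. Psmb9, another such subunit, stood at 13.6 ± 1.45, 46.8 ± 4.83, 28.1 ± 6.49 and 47.7 ± 10.1 CPM. The proteasome activator gene Psme1 stood at 20.6 ± 4.27, 72.1 ± 1.31, 27.01 ± 3.27 and 49.0 ± 10.6 CPM, and its partner Psme2 at 16.4 ± 4.79, 33.3 ± 0.966, 15.0 ± 2.33 and 30.2 ± 9.82. Psmb9, Psme1 and Psme2 were higher in chronic than in remission mice (log2 0.76, 0.85 and 0.99, adjusted p 0.0446, 0.0203 and 0.0422). Lap3, a cytosolic leucine aminopeptidase, rose in all 3 phases, from 33.4 ± 5.66 to 59.3 ± 14.2, 54.2 ± 2.56 and 74.9 ± 12.5 CPM. With scaling by library totals alone, 5 of the 12 rose and 2 fell in acute mice.

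Of 12 loading partners and quality-control genes of the endoplasmic reticulum, 3 rose and 1 fell in acute mice (median -0.06), where 23.7% of all genes rose and 20% fell, so that the share of rises was near that of all genes. None passed in remission, and 2 rose in the chronic phase (9.57% of all genes). From acute to the chronic phase Calr, Canx, Pdia3, Ganab and Hspa5 rose and Lnpep fell (13.3% of all genes rose and 15.5% fell), and from acute to remission Pdia3 rose and Tapbpl, Lnpep, Sec61a1 and Erp44 fell (17.6% and 19.4%). Tapbpl, a tapasin relative that edits peptides, stood at 18.1 ± 2.17 CPM in control mice, 33.0 ± 5.86 at the acute stage, 18.3 ± 0.795 during remission and 28.4 ± 10.1 at the chronic stage and rose in acute mice (log2 0.86 ± 0.22, adjusted p 0.00366). Calr, the chaperone calreticulin, stood at 211 ± 50.1, 169 ± 29.5, 209 ± 7.27 and 314 ± 27.4 CPM and rose in the chronic phase (log2 0.58 ± 0.16, adjusted p 0.0147). Scaling by library totals alone turned the acute count to 0 that rose and 8 that fell.

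Of 24 interferon signalling genes and class I transcription factors, 8 rose and 3 fell in acute mice (median 0.14), where 23.7% of all genes rose and 20% fell. In remission 1 rose and 1 fell (6.06 and 3.25% of all genes), and in the chronic phase 4 rose and 2 fell (9.57 and 5.17%). The counts are given beside these shares and are not read as a result about the list. Socs1, 1 of the acute rises, was at the filter's level in no control library. Irf1, a factor that binds interferon elements, stood at 29.2 ± 3.28, 204 ± 12.5, 41.3 ± 4.16 and 94.8 ± 30.8 CPM, did not pass in remission against control, and was higher in chronic than in remission mice (log2 1.20 ± 0.19, adjusted p 0.00531). Ciita, the class II counterpart of Nlrc5, stood at 2.71 ± 0.0887, 99.8 ± 30.6, 12.3 ± 2.38 and 53.3 ± 35.9 CPM. Chronic replicate 1, the lowest of its group for Nlrc5, Tap1 and Tap2, was also the lowest for Irf1 (62.0 CPM) and Ciita (17.0 CPM). Jak2, the kinase of the interferon gamma receptor among others, rose in acute mice and did not pass in the later phases: 35.2 ± 4.07, 159 ± 47.4, 38.5 ± 5.51 and 43.3 ± 6.10 CPM. Ifngr1, the ligand-binding chain of that receptor, fell in all 3 phases, from 221 ± 7.18 to 143 ± 10.05, 162 ± 14.2 and 162 ± 26.6 CPM. With scaling by library totals alone, 13 of the 24 fell in acute mice.

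**Figure D5:**
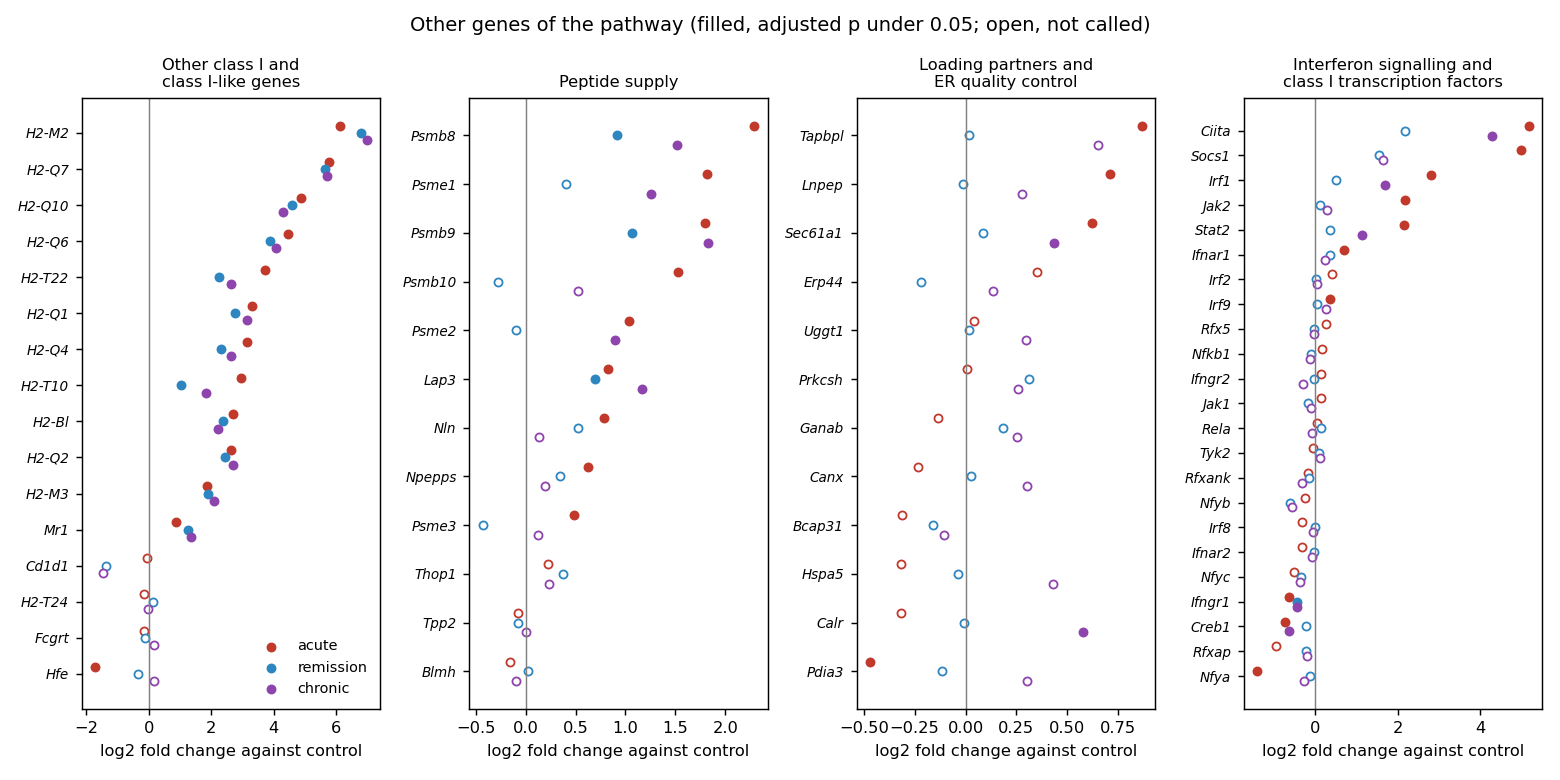
Log2 fold changes against control (x axes) of the tested genes of 4 lists, without those not reported here, ordered by their acute value; filled points had an adjusted p under 0.05 and open points did not, and H2-M2, without a count in controls, is drawn at its fitted value. H2-T10 is at 2.95, 1.02 and 1.82 and Hfe at -1.71, -0.34 and 0.16 in the acute, remission and chronic phases, and Psmb8, Psme1 and Irf1 have their lowest points in remission.

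The interferon genes themselves were hardly seen. Ifng had 31 counts over the 3 acute libraries and 0 in each other group, which allows up to 0.173 CPM in control, 0.208 in remission and 0.216 in chronic mice. Ifnb1 had 1 count, in remission. Tnf rose in acute mice (3.92 ± 2.10 to 24.1 ± 7.30 CPM, adjusted p 5.99e-06) and stood at 2.20 and 4.83 CPM in remission and chronic mice. A list of 12 receptors held mainly receptors for class I and class I-like molecules, and Pilra is not taken here as such a receptor. Of the list, 10 were in the tables and 4 were tested. Pirb stood at 11.05 ± 1.89, 47.3 ± 2.81, 8.97 ± 2.41 and 9.81 ± 4.37 CPM and Pilra at 8.88 ± 1.02, 21.9 ± 3.32, 7.02 ± 0.9748 and 10.7 ± 3.75 CPM in the order control, acute, remission, chronic, and both rose in acute mice (adjusted p 7.03e-07 and 0.000151). Klrk1 and Klra2 had no count in controls and entered the test through the acute libraries, where they stood at 9.43 ± 4.91 and 23.2 ± 7.87 CPM. The other receptors were below the filter, among them Klrd1 with 23, 11, 0 and 3 counts in the same order. The CD8 chain gene Cd8a had 1, 12, 4 and 1 counts in control, acute, remission and chronic mice.

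Among the members, log2 CPM of H2-K1 and H2-D1 ran together over the 12 libraries (Pearson r 0.993), as did Tap1 and Tap2 (0.973), and the lowest value was between H2-T23 and Tapbp (0.607). The genes most like the mean of the 9, among 7264 ranked, were Ftl1 (0.986), Itgal (0.985), Dna2 (0.984), Rpl5 (0.98), Ifi204 (0.98), Clcn7 (0.978), Pla2g16 (0.976), Iigp1 (0.976), H2-Q4 (0.974) and Atp6v1a (0.974). Those most like Nlrc5 were H2-Q4 (0.981), the class II genes H2-Aa (0.979) and H2-Ab1 (0.978), Cpd (0.977) and Itgal (0.976). These values describe 12 libraries that share their 4 groups, and any gene that is high in acute and low in control libraries scores high.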

How the data were processed

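RNA was sequenced from 12 libraries of sorted spinal cord microglia, 3 per group. Per the labels' protocols, RNA was primed with random hexamers, libraries came from a Nextera XT kit, which does not mark strand, and single reads of 75 bases were run. Per the submitters' processing notes, HISAT2, SAMtools 1.3.1, Picard 2.6.4 and HTSeq 0.6.1 were used with GRCm38; counting settings and annotation are not given in the sources used here. The values the authors deposited are raw read counts per Ensembl gene, unnormalised, and the 12 single files equalled the columns of the merged table. GENCODE M21 named 48144 of 48526 IDs.

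From these counts, 12545 genes kept by filterByExpr were fitted in edgeR 4.0.16 (R 4.3.3) as a single model of 4 groups with TMM factors, and tested with robust quasi-likelihood fits, p-values being adjusted over all tested genes by Benjamini and Hochberg's method. The fold changes carry the fit's SE. The series' design gives 3 mice per group, the column names give the same sequencing run and flow cell for all 12 libraries, and no preparation batch was read from the labels. CPM use the TMM library sizes, ratios use CPM per kilobase of the union of a gene's exons, and 7 ratios were tested by exact permutation of the group labels. Values are means ± SD over 3 libraries. In simulated acute against control data, 50 genes were raised at each fold over control means, with the same dispersion for every gene. With 12054 genes tested, 4% of genes changed 1.5-fold, 34% at 2-fold, 96% at 4-fold and 100% at 8-fold were recovered, and 10 of 127 calls were false. The real comparison called 5487 genes, so these shares are not its power. Floors for a count of 0 cover counting error only.

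The members and gene lists were chosen with earlier results of these data known. All 9 members are described; of each list, up to 3 genes with the smallest p in acute against control and up to 2 more in the later phases were named, and the other class I-like genes named (H2-Q1, H2-Q10, H2-T10, H2-T22, H2-Bl, H2-M2, Mr1, Hfe), Canx, Pdia3, Ganab, Hspa5, Erp44, Socs1, Ifngr1, Pilra, Klrd1, Ifng, Ifnb1 and Cd8a were chosen after their values were seen. Likeness was ranked by Pearson r of log2(CPM + 0.5) among genes of at least 10 CPM in a group. Alternatives were DESeq2 size factors, library totals alone, leaving the 6 largest features and mitochondrial genes out, DESeq2 1.42.0, limma-voom (limma 3.58.1), no filter, only the 2 groups compared, the number in the title as a covariate, all H2-K, H2-D, H2-Q and H2-T genes summed, and leaving out each library. The number in the title was 1 in every chronic library and 1 or 2 in each other group, so it was partly confounded with phase. What it marks is not known. The summed fit gave the same value beside H2-K1, H2-D1 and H2-T23. A few genes of the lists are counted in list totals and sums but are not reported here by name.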

Additional observations from a re-analysis of the deposited data

How the results depend on the processing

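Of the recomputed fold changes of the 9 genes, 1052 kept their direction and their side of the threshold, 26 lost a call, 11 gained one and 9 turned sign; of the pathway list counts, 1336 stayed within 1.5 times their value and 104 did not. The 9, 7 and 9 calls against control stood without any single library, and became 8, 7 and 7 with library totals alone. The 7 that fell from acute to remission became 4 with library totals alone and 4 to 7 with 1 library left out. The 1 that rose from remission to the chronic phase became 2 with DESeq2 size factors, 2 with the largest features left out, 2 with DESeq2, 3 with no filter, 0 with only the 2 groups compared and 0 to 2 with 1 library left out. With 1 library left out, the exact permutation p of H2-K1 per H2-D1 ran from 0.0173 to 0.368, and that of H2-T23 per classical heavy chain from 0.0138 to 0.102.

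All sign changes were in differences that did not pass. With library totals alone, the log2 change from acute to chronic became 0.072 for H2-K1, 0.133 for B2m and 0.0615 for Erap1, that of H2-D1 from remission to chronic became -0.0225, and that of Tapbp from control to remission became -0.00501. With the H2-K, H2-D, H2-Q and H2-T genes summed to a single feature, the log2 change of that sum from acute to chronic was -0.344. It was set beside H2-T23 and counted as a sign change, but it is not a value of H2-T23. Most counts of the sum were those of H2-D1 (59768, against 1288 of H2-T23). The change of H2-T23 itself ran from 0.0157 to 0.329 with 1 library left out. With 1 library left out, H2-D1 from remission to chronic ran from -0.0358 (without remission replicate 2) to 0.167, B2m from acute to chronic from -0.121 to 0.0056 and Erap1 from -0.310 to 0.0143 (both highest without chronic replicate 2).

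Library totals alone moved the median log2 change of all genes to -0.53 (acute), -0.24 (remission) and -0.37 (chronic) against control, and to 0.31, 0.19 and -0.13 for remission against acute, chronic against acute and chronic against remission. The share of higher calls then went from 54.3 to 22.8%, 65.1 to 32.6%, 64.9 to 21.7%, 47.6 to 71.2%, 46.3 to 64.4% and 78.1 to 61.4% in that order. Calls over all genes went from 1168 to 767 and 757 in remission against control without control replicate 1 or 2, from 1848 to 3241 (totals alone) and 1216 (without control replicate 2) in chronic against control, and from 3610 to 2402 with the title number as a covariate in chronic against acute. In chronic against remission 151 became 357 with DESeq2, 81 with limma-voom, 828 with no filter, 26 with only the 2 groups compared and 17 to 283 with 1 library left out. No paired analysis was possible because the labels give no number that marks a shared animal, litter or day. The cause of these changes was not tested.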
